A study of Rattus norvegicus with 10 samples.

Results

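Astrocytes clear water, potassium and glutamate from the space around neurons, and the genes for that work were followed here in the rat dentate gyrus 3 weeks after a traumatic brain injury (TBI). The set holds 9 genes, chosen by name as known astrocyte transport and coupling genes. They are Aqp4, Kcnj10, Slc1a2, Slc1a3, Glul, Gja1, Gjb6, Slc7a10 and Slc25a18. In the bulk table of 14166 genes, 8 of the 9 were matched to a row by Entrez identifier, and Slc1a2 was not analysed there. All 9 were present in the nucleus matrices, where astrocyte nuclei were picked by 4 other astrocyte genes, Plpp3, Grin2c, Itih3 and Etnppl. A nucleus with 2 or more unique molecular identifiers (UMIs, one per captured RNA molecule) of these 4 genes together was placed in the astrocyte gate, which held 5469 of 55124 nuclei.

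All animals were male Sprague-Dawley rats, and the tissue was the ipsilateral dentate gyrus, the part of the hippocampus that receives input from the entorhinal cortex. TBI rats received a craniectomy and, days later, a lateral fluid percussion injury, a pulse of fluid against the intact dura. Sham rats had the surgery without the pulse, and the naïve rat had neither. The dentate gyri of 3 sham and 3 TBI rats went into bulk RNA-seq. For single-nucleus RNA-seq 2 TBI rats were set against a sham rat and a naïve rat, which the study joined as controls. The rats of each data set share 1 batch label, and the labels give no age.

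Aqp4 encodes the water channel of astrocyte endfeet, the processes that wrap blood vessels, and Kcnj10 the inward rectifier channel Kir4.1, which takes up potassium released by firing neurons. Slc1a2 (GLT-1) and Slc1a3 (GLAST) are the main glutamate transporters of the forebrain astrocyte, Glul is glutamine synthetase, which turns the captured glutamate into glutamine, and Slc25a18 is a mitochondrial glutamate carrier. Gja1 (connexin 43) and Gjb6 (connexin 30) form the gap junctions that couple astrocytes into a network, and Slc7a10 is an exchanger of small neutral amino acids, D-serine among them. In epilepsy and after trauma this group is known for changes in potassium buffering and glutamate uptake.

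The stretch of 250 bases before the RefSeq start site is printed for 5 members (build GRCr8, 5′ to 3′ on the strand of the gene). Aqp4 (chr18:6798843-6799092, minus strand) and Gja1 (chr20:36302314-36302563, plus strand) are shown because their bulk difference was the clearest of the set. Slc25a18 (chr4:155672919-155673168, plus strand) and Kcnj10 (chr13:87334260-87334509, plus strand) are shown because they had the largest differences in gated nuclei. Slc1a3 (chr2:59557809-59558058, minus strand) is shown because it holds a motif that was searched for. Capitals mark the half-site of nuclear factor I, TTGGCA, on either strand.
Aqp4: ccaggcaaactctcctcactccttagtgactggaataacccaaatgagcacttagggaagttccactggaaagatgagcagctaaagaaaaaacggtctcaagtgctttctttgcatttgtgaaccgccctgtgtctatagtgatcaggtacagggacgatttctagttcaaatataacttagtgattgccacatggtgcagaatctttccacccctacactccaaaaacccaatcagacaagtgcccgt
Gja1: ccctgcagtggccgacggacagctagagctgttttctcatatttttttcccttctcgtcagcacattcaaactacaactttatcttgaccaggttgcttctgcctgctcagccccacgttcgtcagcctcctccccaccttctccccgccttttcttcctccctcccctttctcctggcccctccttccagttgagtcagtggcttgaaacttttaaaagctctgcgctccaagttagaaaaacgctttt
Slc25a18: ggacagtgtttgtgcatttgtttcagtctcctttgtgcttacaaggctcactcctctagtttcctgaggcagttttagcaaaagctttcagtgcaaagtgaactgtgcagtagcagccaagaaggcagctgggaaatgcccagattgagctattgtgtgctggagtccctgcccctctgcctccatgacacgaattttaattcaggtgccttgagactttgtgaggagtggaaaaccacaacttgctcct
Kcnj10: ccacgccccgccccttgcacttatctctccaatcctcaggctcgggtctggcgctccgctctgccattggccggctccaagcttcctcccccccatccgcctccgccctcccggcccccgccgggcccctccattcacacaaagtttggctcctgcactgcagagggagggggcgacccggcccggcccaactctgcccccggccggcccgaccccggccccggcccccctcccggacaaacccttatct
Slc1a3: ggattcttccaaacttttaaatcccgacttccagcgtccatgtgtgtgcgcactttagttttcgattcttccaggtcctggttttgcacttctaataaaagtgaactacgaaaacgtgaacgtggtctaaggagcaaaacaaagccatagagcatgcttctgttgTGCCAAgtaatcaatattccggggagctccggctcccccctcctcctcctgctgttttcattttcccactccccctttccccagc

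RefSeq gave 15 start sites for the 9 members. TTGGCA stood once before all 3 starts of Slc1a3, before 1 of the starts of Glul and before 1 of the starts of Gjb6, on either strand, and before none of the others. The 3 Slc1a3 windows overlap and hold the same site, so they are not separate matches. In the first Slc1a3 stretch, printed above, the motif began 85 bases before the start. Of all 33469 RefSeq rat start sites, 12% held it within the same 250 bases. The STAT palindrome (TTCC, any 1 base, GGAA), which 1.07% of all start sites held, and the SOX motif AACAAT, which 10.3% held, were found before none of the 15 starts. The stretches of Kcnj10 and Slc7a10 were both 72.4% G and C and that of Aqp4 44.8%, beside a median of 51.2% over all start sites. A match or its absence describes the letters in this window only.

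In bulk dentate gyrus, the 4 members Aqp4, Gja1, Glul and Slc1a3 were higher in every TBI library than in every sham library, by much for the first pair and by little for the other. None of the 8 measured members passed an FDR of 0.05 by edgeR's quasi-likelihood test with Benjamini-Hochberg adjustment over the 14166 genes (0% of all genes did), and 2 had an unadjusted p under 0.05 (9.6% of all genes). Values below are log2 CPM, as deposited, where CPM are counts scaled to an equal library total. The p-values measure the spread between rats, 1 library per rat.

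Aqp4 stood at 8.96, 9.34 and 8.70 in sham replicates 1, 2 and 3 and at 9.57, 10.18 and 9.46 in TBI replicates 1, 2 and 3. The lowest TBI library lay above the highest sham library, and TBI replicate 2 stood highest of all 6. This gave a log2 fold change of 0.72 (SE 0.24, edgeR adjusted p = 0.365), which became 0.43 without TBI replicate 2. In CPM, Aqp4 went from 519 ± 118 in sham to 875 ± 250 in TBI (SD, n = 3 each).

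Gja1 stood at 8.43, 8.49 and 8.27 in the sham libraries and at 8.81, 9.11 and 8.77 in the TBI libraries. The groups did not overlap, and TBI replicate 2 was again the highest library. The log2 fold change was 0.47 (SE 0.13, edgeR adjusted p = 0.277), the smallest adjusted p of the members. Across the 6 libraries Gja1 followed Aqp4 (Pearson r = 0.97, a description over 6 libraries that also share the group difference).

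Glul stood at 10.37, 10.33 and 10.30 in sham and at 10.41, 10.49 and 10.63 in TBI. Slc1a3 stood at 9.82, 9.74 and 9.60 in sham and at 9.85, 9.85 and 9.95 in TBI. Neither gene's groups overlapped, though the gap between them was narrow in both. The log2 fold change of Glul was 0.14 (SE 0.10, edgeR adjusted p = 0.715), and that of Slc1a3 was 0.12 (SE 0.10, edgeR adjusted p = 0.764). Without TBI replicate 3 the first became 0.09, and without sham replicate 3 the second became 0.06. Over all genes, 11.7% were higher in every TBI library than in every sham library and 3.04% were lower in every one, beside 4 and 0 of the 8 members.

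The other 4 members overlapped between the groups. Kcnj10 stood at 5.51, 6.26 and 5.73 in sham and at 5.57, 5.68 and 5.52 in TBI, with sham replicate 2 apart from the rest (log2 fold change -0.32, SE 0.19, edgeR adjusted p = 0.682). Without that library the log2 fold change of Kcnj10 was -0.07. The summed oligodendrocyte markers stood at 2088 CPM in it and at 589 and 831 CPM in the other sham libraries, and their part in the value was not tested. Slc25a18 stood at 5.95, 5.53 and 5.92 in sham and at 6.09, 5.86 and 6.07 in TBI (log2 fold change 0.16, SE 0.14, edgeR adjusted p = 0.776, and 0.04 without sham replicate 2). Slc7a10 stood at 5.26, 5.25 and 5.46 in sham and at 5.43, 5 and 5.39 in TBI (log2 fold change -0.08, SE 0.14, edgeR adjusted p = 0.921), and without TBI replicate 2 its sign turned (0.016).

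Gjb6 was set apart by 1 library. It stood at 5.35, 5.24 and 5.40 in sham and at 5.33, 5.08 and 6.50 in TBI, so that TBI replicate 3 lay far above the other 5 libraries, which spanned 5.08 to 5.40. The log2 fold change of 0.40 (SE 0.34, edgeR adjusted p = 0.776) became -0.15 without that library. The gene value was the sum of 2 transcripts. Both were highest in that library. Scaled to the library total, ENSRNOT00000081757.1 stood at 57.5 CPM in TBI replicate 3 and at 19.8 to 29.0 CPM in the others, and ENSRNOT00000011742.3 at 31.9 CPM and at 11.1 to 20.6 CPM.

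**Figure D1:**
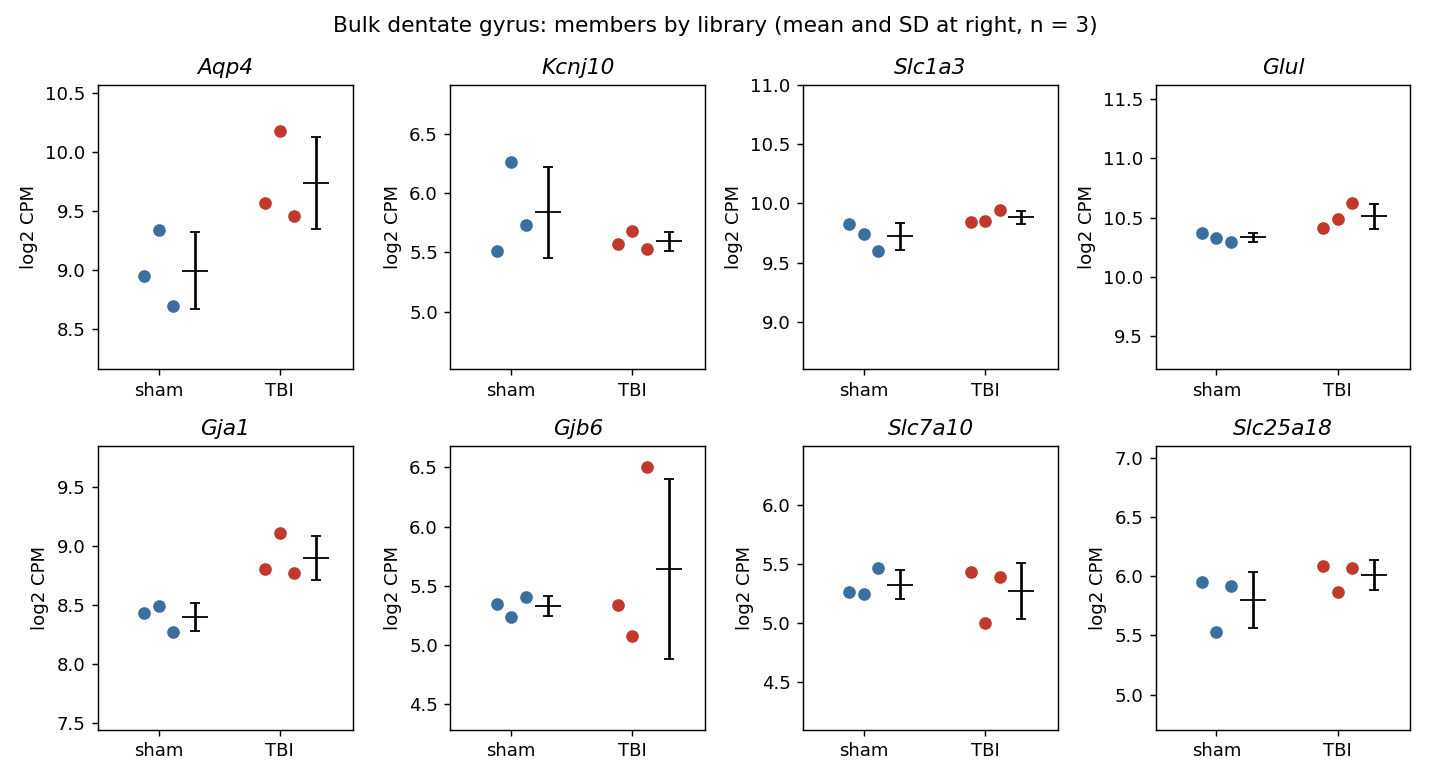
Log2 CPM (y axis) of the 8 members with a bulk row in 3 sham (blue) and 3 TBI (red) libraries, 1 point per rat, with the mean and SD at the right of each group. All y axes span the same range around the mean of the gene. Aqp4 and Gja1 separate clearly, Glul and Slc1a3 narrowly, and Gjb6 is drawn up by TBI replicate 3 alone.

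The surgeries of the bulk rats fell in 2 periods, spring (1 TBI and 2 sham rats) and autumn (2 TBI rats and 1 sham rat). Within spring Aqp4 was 0.43 higher in TBI on the log2 scale and within autumn 1.12 higher. The corresponding differences of Gja1 were 0.35 and 0.67, those of Slc1a3 0.06 and 0.30, and those of Glul 0.06 and 0.26. Slc7a10 differed in sign between the periods, at 0.17 and -0.27. With the period as a covariate the log2 fold changes of Aqp4 and Gja1 were 0.75 and 0.47 (edgeR adjusted p = 0.758 and 0.67). Under DESeq2 with the study's adjustment, made only over genes with p under 0.05, Aqp4 and Gja1 were called (adjusted p = 0.0114 and 0.00724), as were 10.8% of all genes, and under DESeq2 with the adjustment over all genes neither was (adjusted p = 0.105 and 0.0672, with 2.46% of all genes called).

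Cell type markers moved in the same bulk libraries. The 4 microglia markers (Csf1r, Inpp5d, Ikzf1 and Dock8) had a median log2 fold change of 1.07 and 3 of 4 did not overlap, while the 4 oligodendrocyte markers had a median of -0.76 (-0.05 without sham replicate 2) and the 4 glutamatergic neuron markers one of -0.23, with no group of either apart. The 9 other astrocyte markers had a median of 0.28, all 9 on the higher side and 6 of 9 apart. The gate genes used below for nuclei had a median of 0.33, with 3 of 4 (Plpp3, Grin2c and Itih3) higher in every TBI library. These stand beside a median log2 fold change of 0.15 for the 8 members and of -0.003 for all genes. The part of these markers' changes in the members' values was not tested. In bulk tissue more or fewer astrocytes and more or less RNA per astrocyte cannot be told apart.

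Genes of the same pathways were read from lists, and none passed an FDR of 0.05 by edgeR in any list. The list of reactive astrocyte genes was the one that stood furthest from 0, with a median log2 fold change of 1.63 over 10 measured genes, 8 of 10 higher in every TBI library and 7 of 10 with an unadjusted p under 0.05. Gfap, the intermediate filament of astrocytes, stood at 1146, 1304 and 891 CPM in sham and at 2832, 5395 and 2583 CPM in TBI (log2 fold change 1.66, SE 0.30, edgeR adjusted p = 0.197). Vim, another intermediate filament, had a log2 fold change of 1.91 (SE 0.43, edgeR adjusted p = 0.208), and the groups of Aspg, Timp1, Cp, Osmr and C3 did not overlap either. The differences of Aqp4 and Gja1 were smaller than that of Gfap, and the pattern of high values was alike, with TBI replicate 2 highest for all 3 genes.

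Of the genes for water and potassium handling at the endfoot, 11 of 14 were measured and had a median log2 fold change of 0.09. Mlc1, a membrane protein of the astrocyte endfoot, was the single gene of that list whose groups did not overlap, at 413.5, 380 and 342 CPM in sham and 533, 749 and 521 CPM in TBI (log2 fold change 0.63, SE 0.16, edgeR adjusted p = 0.254). Kcnj16, which pairs with Kcnj10 in a channel, had a log2 fold change of 0.71 (SE 0.40), with overlap, and so had the potassium channel Kcnk2 (0.61, SE 0.44). Of the sodium pump genes described here, Atp1b2 and Fxyd1 were higher in every TBI library. Atp1b2, a glial beta subunit, had a log2 fold change of 0.36 (SE 0.11, edgeR adjusted p = 0.313), and the regulator Fxyd1 one of 0.55 (SE 0.17, edgeR adjusted p = 0.317).

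All 18 genes of glutamate and glutamine handling were measured, with a median log2 fold change of -0.09. The groups of 5 did not overlap on the higher side (Slc1a4, Glud1, Slc38a3, Slc7a11 and Slc3a2) and those of 3 on the lower side (Got1, Slc25a12 and Srr), lists given after their values were seen. Slc7a11 (the cystine and glutamate exchanger) had a log2 fold change of 0.75 (SE 0.19, edgeR adjusted p = 0.242), its partner Slc3a2 one of 0.41 (SE 0.12, edgeR adjusted p = 0.299), and Glud1 (glutamate dehydrogenase) one of 0.27 (SE 0.09, edgeR adjusted p = 0.372). The 3 genes of GABA and glycine uptake all had negative log2 fold changes with overlap, Slc6a9 -0.55 (SE 0.38) and Slc6a11 -0.21 (SE 0.17). Of 9 measured gap junction genes other than the members, 1 did not overlap, the vascular connexin Gja4 (log2 fold change 0.76, SE 0.36, named after its values were seen). Gjb2 (connexin 26) resembled Gjb6 in its pattern, with 35.8 CPM in TBI replicate 3 and 4.16 to 9.48 CPM in the other 5 libraries. Among 9 genes for bicarbonate, lactate, glucose and related transport, 4 were higher in every TBI library. They were the urea transporter Slc14a1 (log2 fold change 0.69, SE 0.18, edgeR adjusted p = 0.255), the peptide transporter Slc15a2 (0.46, SE 0.14, edgeR adjusted p = 0.324) and, named after their values were seen, Slc39a12 (0.35, SE 0.24) and Slc27a1 (0.06, SE 0.09).

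The genes whose bulk log2 CPM was most like the mean of the members' z-scores over the 6 libraries were F13a1, C19h1orf198, Cpxm1, Vstm4 and Mfap2, with Pearson r of 0.991 to 0.996. With 6 libraries and a table of 14166 genes, such values describe these libraries only.

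In single nuclei, all 9 members stood higher inside the astrocyte gate than outside it in each of the 4 rats. The gate was drawn with other astrocyte genes, so this is a description of the gate and not a test. It held 10.7% of the nuclei of TBI replicate 1 (1335 of 12508, 95% Clopper-Pearson interval 10.1% to 11.2%), 7% of TBI replicate 2 (1008 of 14400, 6.59% to 7.43%), 11.8% of the sham rat (1999 of 16931, 11.3% to 12.3%) and 9.99% of the naïve rat (1127 of 11285, 9.44% to 10.5%). The share was lower in TBI by 2.06 percentage points on average, with overlap (exact permutation test, two-sided, p = 0.667, where 2 against 2 cannot go below 0.333). The median gated nucleus held 2710, 2077, 1672 and 2887 UMIs in that order of rats.

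The gate was mixed. Of the gated nuclei, 64.6%, 64.2%, 42.8% and 62.3% in the same order also reached 2 UMIs of the markers of another class, most often those of glutamatergic neurons (52.7%, 48.7%, 24.8% and 42.7%). Summed glutamatergic markers stood at 736 and 805 CPM in the gates of the TBI rats and at 462 and 497 CPM in those of the sham and naïve rats, and 3 of 3 measured genes were higher in both TBI rats. CPM here are UMIs summed per rat over the nuclei of a set and scaled to an equal total over all genes. Doublets were not removed, and 45 to 60 nucleus barcodes were shared by each pair of rats, at most 0.452% of the smaller library. The comparison of TBI with control rats is therefore given with and, for some members, also without the nuclei that passed for another class. The other values below use the whole gate unless stated.

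The ratio of the level in the gate to that outside it was largest for Slc7a10, at 7.86, 24.7, 14.5 and 70.6 in TBI replicates 1 and 2, the sham rat and the naïve rat. It was 5.89, 18.3, 9.69 and 31.1 for Gja1 and 6.46, 13.97, 10.5 and 27.7 for Slc25a18. By the median over the 4 rats it was smallest for Glul (3.92, 5.47, 6.58 and 25.4) and Kcnj10 (3.98, 4.96, 8.49 and 13.6), though in TBI replicate 1 that of Aqp4 was smaller (3.79). For every member the ratio was lowest in TBI replicate 1 and highest in the naïve rat. Gated nuclei held 62.8% to 93.6% of all UMIs of Slc7a10 and 40.6% to 73.8% of those of Kcnj10.

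The levels also climbed with the gate sum. Slc1a2 averaged 78.3 CPM over the 4 rats in nuclei with no gate UMI, 151 CPM in nuclei with 1, just outside the gate, 432 CPM in nuclei with exactly 2, just inside it, and 1059 CPM in nuclei with 4 or more. Gja1 averaged 31.2, 70.8, 207 and 613 CPM in the same bands, and Aqp4 38.6, 65.4, 151 and 504 CPM. Deeper nuclei reach a higher sum more easily, so the bands also differ in depth.

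**Figure D2:**
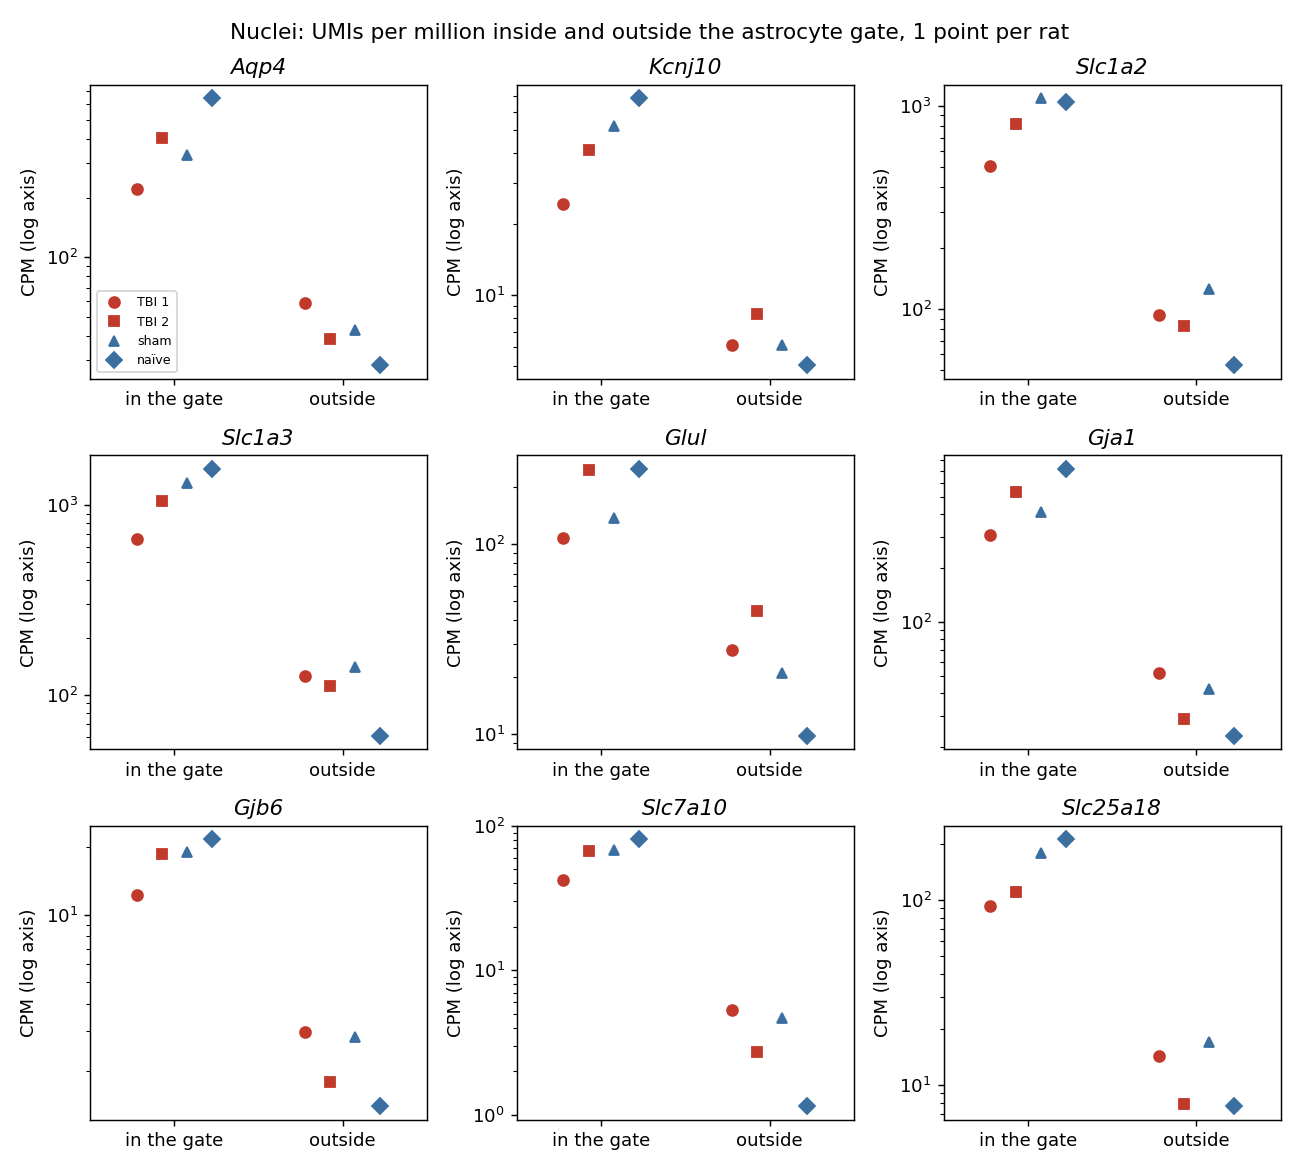
Scaled UMIs (CPM, log axis) of each member inside and outside the astrocyte gate, 1 point per rat (TBI replicates 1 and 2 in red, sham and naïve in blue). Every point inside the gate stands above the same rat's point outside, and inside it both TBI rats stand below both control rats for 6 of the 9 members.

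Across marker classes of the nuclei outside the gate, the members differed in how far they fell below the gate. Kcnj10 stood as high in oligodendrocytes as in the whole, mixed gate, at 48.4 ± 8.40 CPM against 46.5 ± 18.5 CPM (SD, n = 4 rats), higher in 2 of 4 rats. Its oligodendrocyte values spanned 38.4 to 56.4 CPM. In gated nuclei of no other class Kcnj10 stood at 35.7 and 50.8 CPM in TBI replicates 1 and 2. There it was 64.7 CPM in the sham rat and 123 CPM in the naïve rat. Kcnj10 was next in oligodendrocyte precursors, at 27.4 ± 10.1 CPM and lower than in the gate in 4 of 4 rats. Microglia held 3.61 ± 2.06 CPM of it, from 1 to 3 UMIs a rat, and glutamatergic neurons 1.74 ± 0.70 CPM.

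Slc1a3 stood at 1140 ± 381 CPM in the gate, at 548 ± 157 CPM in pericytes (17 to 37 UMIs a rat), and at 394.5 ± 48.4 CPM in microglia (161 to 380 UMIs a rat). The microglia values spanned 331 to 433 CPM and lay above the oligodendrocyte values (163 to 290 CPM) with no overlap, while oligodendrocytes and precursors (196 to 257 CPM) did not differ beyond their spread. Glutamatergic neurons held 57.4 ± 32.7 CPM. As a percent of the gate's level in the same rat, Slc1a3 in microglia was 25.3% to 58.2%, where Gja1 was 10.1% to 21.4%, Slc1a2 11.2% to 21.3% and Slc25a18 8.74% to 13.7%. Other members reached the range of Slc1a3 there, with Glul at 19.0% to 45.5%, Aqp4 at 14.4% to 42.8% and Gjb6, from 2 to 8 UMIs a rat, at 15.6% to 61.8%. Free RNA was not measured, and its part in these levels was not tested.

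Glul stood at 185 ± 72.5 CPM in the gate and at 96.1 ± 54.3 CPM in oligodendrocytes, which was 28.6% to 73.7% of the gate's level, and at 63.8 ± 31.7 CPM in microglia. The precursors held 28.2 ± 8.46 CPM, below every microglia value. Pericytes, endothelial cells and oligodendrocytes did not differ beyond their spread for Glul.

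Slc25a18 and Gja1 stood higher in the gate than in every other class, with no overlap. Slc25a18 stood at 149 ± 56.6 CPM in the gate and at 39.4 ± 12.9 CPM in pericytes, the next class, and Gja1 at 491 ± 177 CPM and 130.5 ± 68.6 CPM. Slc1a2 stood at 865 ± 268 CPM in the gate, and glutamatergic neurons held 74.4 ± 23.8 CPM of it. Aqp4 in pericytes was at a median of 60.5% of the gate's level (7 to 12 UMIs a rat) and Slc7a10 at 65.9% (1 to 3 UMIs a rat). Aqp4 was lowest in the neurons, at 31.7 ± 13.1 CPM in glutamatergic and 21.3 ± 13.8 CPM in GABAergic ones. The pericyte class held 24 to 38 nuclei a rat and its levels rest on few UMIs, such as the 3 to 11 of Gja1. With 0 to 2 UMIs of Gjb6 a rat they reached 211% of the gate's level in 1 rat. Gjb6, with 59 to 130 UMIs a rat in the gate, was listed at 0 in endothelial nuclei of all rats, of which there were 24 to 81.

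Shares of nuclei with a UMI were compared after thinning each nucleus to 1000 UMIs. In the gate 44.8% to 69.0% of nuclei had a Slc1a3 UMI, 40.8% to 60.7% a Slc1a2 UMI and 29.0% to 47.1% a Gja1 UMI, over the 4 rats. In glutamatergic neurons, where these genes are far lower, though Slc1a2 mRNA is known in hippocampal neurons, the shares were 2.19% to 8.72%, 4.50% to 9.39% and 0.998% to 4.04%. For Gjb6 the share in the gate was 1.27% to 2.94%, close to the level of single UMIs.

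**Figure D3:**
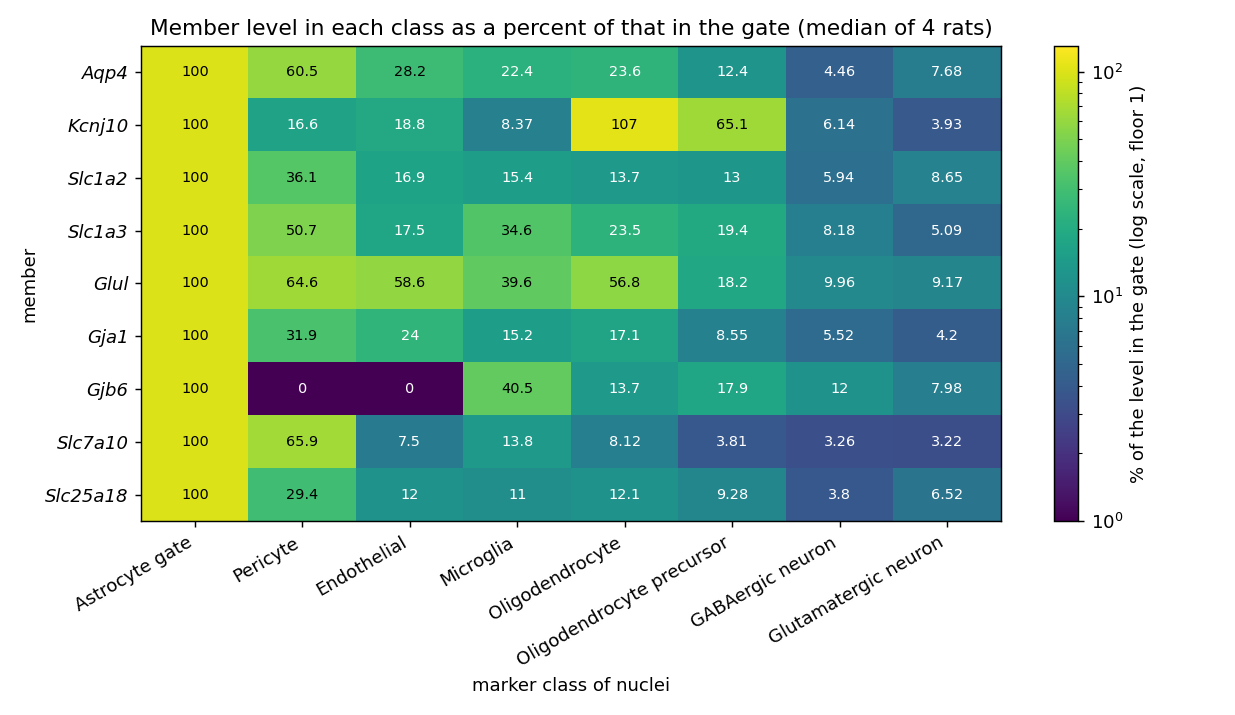
Level of each member (rows) in 8 marker classes of nuclei (columns) as a percent of its level in the astrocyte gate of the same rat, median of 4 rats, on a log colour scale with a floor at 1. Kcnj10 reaches 107 in oligodendrocytes and 65.1 in their precursors, Slc1a3 34.6 in microglia and Glul 56.8 in oligodendrocytes, while the pericyte and endothelial columns rest on few nuclei.

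Over the sums of 8 classes in 4 rats (32 points, log2(CPM + 1)), the genes most like the mean of the members' z-scores, members and gate genes left out, were Gramd2b, Rorb, Clu, Col11a2 and Acsbg1, with Pearson r of 0.94, 0.93, 0.92, 0.91 and 0.91. The points of 1 rat share a library. Acsbg1, an acyl-CoA synthetase of glia, is on the list of other astrocyte markers, and Clu encodes clusterin.

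Inside the gate, every member had a negative log2 fold change between TBI and control rats, and for 6 of 9 both TBI rats lay below both controls. Over all 12999 genes tested, 17.1% were lower in both TBI rats than in both controls and 23.3% were higher. By edgeR's quasi-likelihood test on the sums per rat, 0 of the 9 members and 0% of all genes passed an FDR of 0.05, and 4 of 9 had an unadjusted p under 0.05, all lower, beside 8.44% of all genes in either direction and 3.96% lower. The median log2 fold change was -0.68 over the members and -0.01 over all genes.

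Slc25a18 stood at 92.9 and 111 CPM in TBI replicates 1 and 2 and at 180 and 213 CPM in the sham and naïve rats. The controls held the higher level with a wide gap, from 351 to 1273 UMIs a rat. Its log2 fold change was -0.99 (SE 0.19, edgeR adjusted p = 0.498) and stayed between -1.14 and -0.87 with each rat left out. DESeq2 called it (adjusted p = 0.0286), as it did 0.115% of all genes.

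Kcnj10 stood at 24.4 and 41.1 CPM in the TBI rats and at 52.2 and 68.3 CPM in the controls (log2 fold change -0.94, SE 0.29, edgeR adjusted p = 0.514). Slc1a3 stood at 659 and 1046 CPM in the TBI rats and at 1308 and 1548 CPM in the controls (log2 fold change -0.79, SE 0.26, edgeR adjusted p = 0.522). Slc1a2 stood at 507 and 815 CPM in the TBI rats and at 1093 and 1045 CPM in the controls (log2 fold change -0.74, SE 0.25, edgeR adjusted p = 0.527). For both glutamate transporters and Kcnj10 the groups did not overlap, and TBI replicate 1 was the lowest rat.

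Slc7a10 stood at 42.0 and 66.7 CPM in the TBI rats and at 68.0 and 80.8 CPM in the controls, and Gjb6 at 12.2 and 18.6 CPM and at 19.1 and 21.7 CPM. Both were separate by a narrow gap between TBI replicate 2 and the sham rat (log2 fold changes -0.51, SE 0.26, and -0.47, SE 0.32; edgeR adjusted p = 0.631 and 0.739).

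Aqp4, Gja1 and Glul overlapped. Aqp4 stood at 223 and 406 CPM in the TBI rats and at 329 and 643 CPM in the controls (log2 fold change -0.68, SE 0.37, edgeR adjusted p = 0.665). Gja1 stood at 306 and 530 CPM and at 411 and 718 CPM (-0.48, SE 0.33, edgeR adjusted p = 0.738). Glul stood at 108 and 244 CPM and at 138 and 249 CPM (-0.19, SE 0.40, edgeR adjusted p = 0.924), and its sign turned when TBI replicate 1 (0.29) or the naïve rat (0.30) was left out. For these 3 genes TBI replicate 2 lay above the sham rat, so that the 2 controls differed as much as the groups did.

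The gate genes lay lower in the TBI gates as well. Plpp3, Itih3 and Etnppl, 3 of the 4 gate genes, were lower in both TBI rats than in both controls, as was Fgfr3 of the 9 other astrocyte markers, whose median log2 fold change was -0.39. The summed level of these 9 was 1108 and 3020 CPM in the TBI rats and 1527 and 3025 CPM in the sham and naïve rats. Counted per 100 UMIs of the 4 gate genes in place of CPM, a scale added after seeing the data, 4 members stayed lower in both TBI rats, beside 2.79% of all genes. They were Kcnj10 (2.195 and 2.75 against 2.94 and 4.14), Slc1a2 (45.6 and 54.6 against 61.6 and 63.3), Slc1a3 (59.3 and 70.1 against 73.8 and 93.7) and Slc25a18 (8.36 and 7.43 against 10.1 and 12.9). This scale divides by the genes that drew the gate, which mostly lay lower in TBI, so it raises all genes in TBI. In CPM 6 members and 17.1% of all genes were lower in both TBI rats. The counts on this scale are a description and not a test. With 1 gate UMI as the minimum, 3 members were lower in both TBI rats, beside 12.5% of all genes. The part of neuronal RNA in the gate, which was higher in the TBI rats, was not tested directly.

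In the gated nuclei that passed for no other class, 5 of 9 members (Kcnj10, Slc1a2, Slc1a3, Slc7a10 and Slc25a18) remained lower in both TBI rats, beside 13.4% of all genes. Slc25a18 stood there at 167 and 140 CPM in the TBI rats and at 210 and 317 CPM in the controls (log2 fold change -0.82, SE 0.29, edgeR adjusted p = 0.999), and Kcnj10 at 35.7 and 50.8 CPM and at 64.7 and 123 CPM (-1.16, SE 0.37, edgeR adjusted p = 0.999). The log2 fold change of Slc1a3 was -0.78 (SE 0.39) and that of Slc1a2 -0.58 (SE 0.34). The naïve rat stood highest of the 4 for every member in these nuclei.

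**Figure D4:**
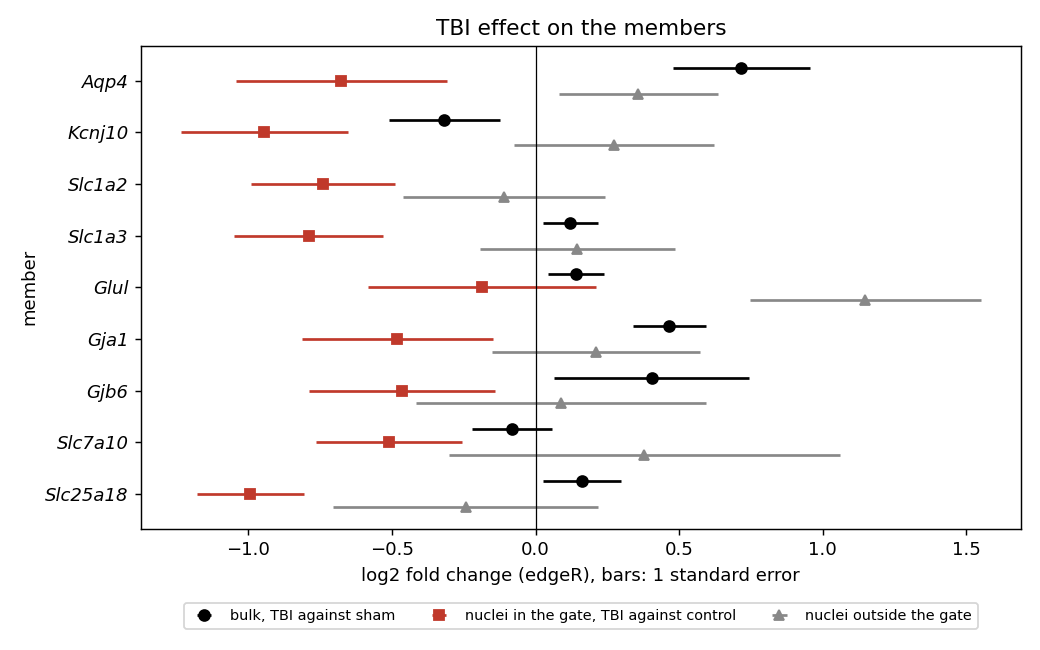
Log2 fold change (x axis, bars 1 standard error, edgeR) of each member between TBI and sham in bulk (black circles), between TBI and control rats in gated nuclei (red squares) and in nuclei outside the gate (grey triangles). All 9 red squares lie below 0, while Aqp4 and Gja1 have positive bulk values of 0.72 and 0.47, and Slc1a2 has no bulk point.

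Outside the gate, the members did not show this pattern. Of the 9, 7 had a positive log2 fold change and 2 a negative one, 0 were lower in both TBI rats (7.45% of 15504 genes were) and 1 was higher in both (25.8% of genes were). That gene was Glul, at 27.6 and 44.7 CPM in the TBI rats and 20.9 and 9.82 CPM in the controls (log2 fold change 1.15, SE 0.40, edgeR adjusted p = 0.992). Oligodendrocyte markers, whose class held Glul, had a median log2 fold change of 0.87 outside the gate and microglia markers one of 0.88. The 9 other astrocyte markers had a median of 0.57 there, with all 9 on the higher side and 3 of 9 higher in both TBI rats. Microglia made up 4.30% and 5.85% of the nuclei in the TBI rats and 2.34% and 3.57% in the controls, and oligodendrocytes 4.78% and 7.67% against 3.57% and 3.18%. The part of these classes, and of astrocyte RNA outside the gate, in the value of Glul was not tested.

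The difference between the effects inside and outside the gate was tested as an interaction with the rat as a block. It was negative for all 9 members, passed an FDR of 0.05 for 0 of them by edgeR (0% of 12999 genes passed), and had an unadjusted p under 0.05 for 3 (10.3% of all genes). Those were Kcnj10 (-1.21, SE 0.27, edgeR adjusted p = 0.403), Glul (-1.40, SE 0.53, edgeR adjusted p = 0.444) and Slc1a3 (-1.06, SE 0.45, edgeR adjusted p = 0.482).

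Within the gate the members were higher in nuclei rich in Gfap. Gated nuclei with 2 or more Gfap UMIs numbered 403, 515, 543 and 552 in TBI replicates 1 and 2, the sham rat and the naïve rat, and those with none numbered 691, 347, 1053 and 411. Aqp4 was 3.75 to 6.75 times higher in the former, Glul 2.90 to 5.12 times and Gja1 2.43 to 3.25 times. The ratio was smallest for Slc7a10 (1.53 to 1.89) and Kcnj10 (1.59 to 1.94), and it was above 1 in 4 of 4 rats for every member. The Gfap-rich nuclei were deeper, with a median of 2320 to 4084 UMIs against 1572 to 2649, and a nucleus with more astrocyte RNA passes both criteria more easily.

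Among the Gfap-rich gated nuclei, 8 of 9 members were lower in both TBI rats than in both controls, Glul being the exception, beside 19.9% of all genes. Slc25a18 stood at 120 and 121 CPM in the TBI rats and at 253 and 244 CPM in the controls. Aqp4 stood at 348 and 505 CPM against 581 and 836 CPM, and Gja1 at 439 and 610 CPM against 622.5 and 862 CPM, so that both were separate in these nuclei though not in the whole gate. Among gated nuclei with no Gfap UMI, 5 of 9 were lower in both TBI rats, beside 14% of all genes. Slc25a18 was among them, at 56.5 and 71.6 CPM against 108 and 97.2 CPM.

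**Figure D5:**
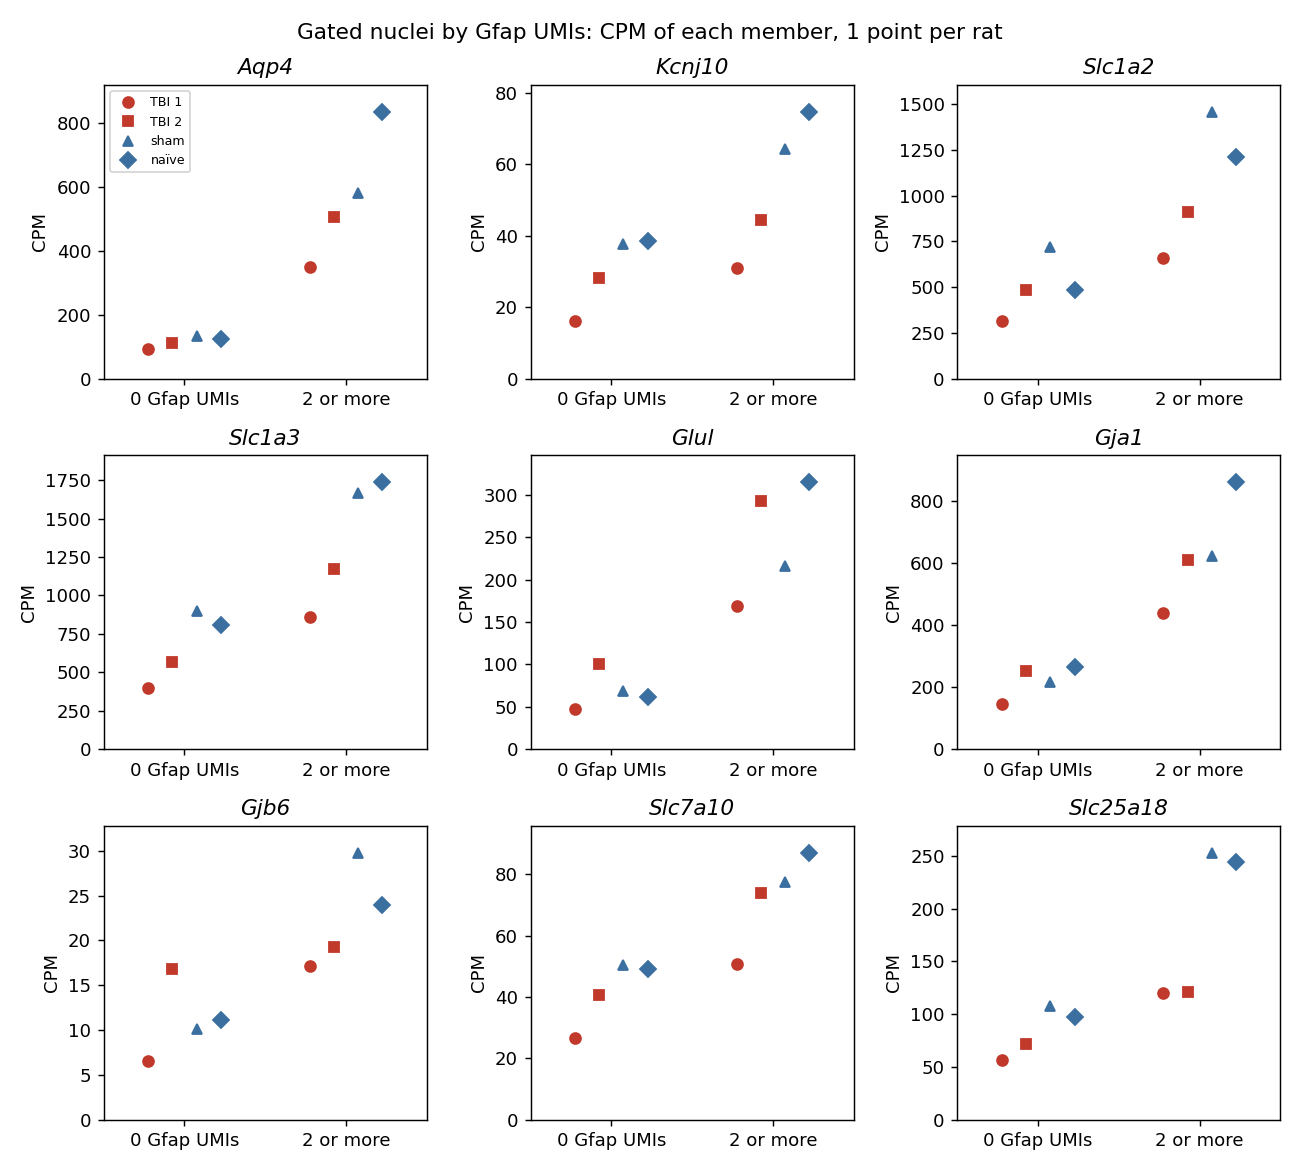
Scaled UMIs (CPM, y axis from 0) of each member in gated nuclei with no Gfap UMI and with 2 or more, 1 point per rat (TBI replicates 1 and 2 in red, sham and naïve in blue). Each rat's value is higher in the Gfap-rich nuclei for every member, and there both TBI rats lie below both controls for all members but Glul.

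The pathway lists were read in the gate too, and 0 of their genes passed an FDR of 0.05 by edgeR. Of the genes for bicarbonate, lactate, glucose and related transport, 7 of 9 were lower in both TBI rats and 5 of 9 had an unadjusted p under 0.05, with a median log2 fold change of -0.61. Slc14a1 had -0.56 (SE 0.23) and Slc15a2 -0.61 (SE 0.24), where bulk had given 0.69 and 0.46. Endfoot genes stood on both sides, and those given here were named after their values were seen. Dmd, Utrn and Dtna, parts of the dystrophin complex that holds Aqp4 at the endfoot, were lower in both TBI rats, with log2 fold changes of -0.60, -0.52 and -0.36. Higher in both were the potassium channels Kcnk1, Kcnk2 and Kcnk10 and the matrix protein Agrn, with 0.35, 0.77, 0.45 and 0.50. In the controls these channels averaged 55.0, 66.9 and 105 CPM outside the gate and 43.7, 40.0 and 67.1 CPM inside it. Agrn was higher in both TBI rats outside the gate as well (0.67). The part of neuronal RNA in these values was not tested. Mlc1 stood at -0.71 (SE 0.31), with overlap. Of the genes of glutamate and glutamine handling, Glud1, Slc38a3 and Slc7a11 were lower in both TBI rats (-0.74, -0.86 and -0.71) and Slc1a1, which neurons use, was higher in both (0.33), again named after their values were seen. The reactive astrocyte list had a median of -0.46 over the 7 of its 12 genes that passed the filter on low counts. Vim and Nes were lower in both TBI rats and 0 higher. Its bulk median of 1.63 was over a different set of 10 genes, with Osmr and Timp1, which were not tested in the gate. Over all genes in the gate 17.1% were lower in both TBI rats and 23.3% higher. Vim and Nes were scarce, averaging 6.68 and 1.98 CPM in the TBI rats and 12.4 and 4.25 CPM in the controls. Gfap (-0.24), Cd44 (-0.61), Cp (-0.46), C3 (0.71) and Aspg (0.75) overlapped. In nuclei outside the gate the list had a median of 0.30 over 9 tested genes, 7 with a positive value and 2 with a negative one. There Gfap (1.25), Vim (0.61) and C3 (2.27), named after their values were seen, were higher in both TBI rats and 0 genes were lower. Over all genes outside the gate 25.8% were higher in both TBI rats and 7.45% lower. Bulk compared other rats, with sham controls alone, and measured whole-tissue RNA where the matrices hold nuclear RNA.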

How the data were processed

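Bulk RNA-seq and single-nucleus RNA-seq of the rat dentate gyrus were used. For bulk, the authors mapped polyA reads with kallisto (version not given in the sources used here) and deposited estimated counts per transcript, not normalized, and log2 CPM of 14166 genes after filters on annotation, abundance and variance. Inverting these log2 values (pseudocount 0.5) gave the gene counts, which were rounded. Depth was 25121893 to 44649404 estimated counts per library. For nuclei, the authors deposited UMI counts from Cell Ranger over exons and introns, on Rnor_6.0 per the labels. The filters of the study were applied (at least 500 UMIs, 300 features and 0.8 for log10(genes) over log10(UMIs), at most 5% mitochondrial and 2% ribosomal UMIs), which left 11285 to 16931 nuclei and 26086141 to 35293678 UMIs per rat. Stored zeros, 1.63% to 27.4% of entries, were read as 0.

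The 9 members, the gate and all gene lists were chosen with earlier results of these data known. Entrez rows were named with RefSeq's GRCr8 table (13778 of 14166). Outside the gate a nucleus took the class with 2 or more UMIs of its markers. edgeR 4.0.16 (quasi-likelihood, TMM, Benjamini-Hochberg over all genes tested) was run on libraries and on UMI sums per rat, and tested on simulated data. DESeq2 1.42.0 and limma 3.58.1, on the deposited log2 values, were alternatives. Scripts ran in R 4.3.3 and in Python 3.11.15, with scipy 1.17.1 for exact tests and matplotlib 3.10.9 for plots. Members were all named. Of the related lists, genes with bulk p under 0.05 and separate groups were named, at most 6 a list, and the 2 largest changes of the rest. Intervals cover counting error only. No authors' annotation of nuclei was used here. Some genes of the related lists are not reported here.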

Additional observations from a re-analysis of the deposited data

Results flagged for a closer look

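Slc1a3, the glutamate transporter GLAST, had values of opposite sign in the 2 data sets and passed the test in neither. In bulk every TBI library lay above every sham library, with a log2 fold change of 0.12, and in gated nuclei both TBI rats lay below both controls, with a log2 fold change of -0.79. Aqp4, Gja1, Glul, Gjb6 and Slc25a18 also had a positive value in bulk and a negative one in the gate. Each of these overlapped between the groups in bulk or in the gate. The difference between the data sets was not tested, since they come from different rats and differ in controls and in the kind of RNA. Bulk also covers all cells of the tissue, and the gate only a part of the nuclei. In nuclei outside the gate the log2 fold change of Slc1a3 was 0.15 (SE 0.34), with overlap. The bulk gap of Slc1a3 was narrow, 9.85 in the lowest TBI library against 9.82 in the highest sham library. Beside it, 11.7% of all genes in bulk were higher in every TBI library and 17.1% of all genes in the gate were lower in both TBI rats. Glutamatergic neuron markers were higher in the gates of both TBI rats, and their part in the value was not tested.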

How the results depend on the processing

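No member was called in bulk by edgeR under any alternative normalization, filter, covariate or left-out library tried, nor by limma or DESeq2 with the adjustment over all genes. DESeq2 with the study's adjustment called 2 members and 1525 genes, and DESeq2 called 349 genes, against 0. Whether the replicate numbers paired the bulk libraries was unclear (correlations of deviations 0.35, 0.17 and -0.03, and 2 of 3 TBI libraries correlated best with their own number). A fit with the replicate block called 61 genes and 0 members. Leaving out 1 library gave 0 to 1 genes called and 1 to 3 members with an unadjusted p under 0.05, fewest without sham replicate 3 or TBI replicate 2 and most without sham replicate 1. The log2 fold change of Gjb6 ran from -0.15 (without TBI replicate 3) to 0.64, and that of Slc7a10 from -0.16 to 0.016 (without TBI replicate 2). In the gate, DESeq2 called 15 genes (0.115% of those tested) and 1 member. Without a filter on low counts, edgeR called 284 genes and 5 members (7 with an unadjusted p under 0.05). The share of all genes is not given for that setting, so its counts of members cannot be set against one. Gated nuclei of no other class left 2 members with an unadjusted p under 0.05, again without the share of all genes beside it. With 1 gate UMI as the minimum, 3 members and 12.5% of all genes were lower in both TBI rats. Leaving out 1 rat gave 0 to 21 genes called, 1 to 8 members with an unadjusted p under 0.05, and a median log2 fold change of the members of -1.14 to -0.31, lowest in size without TBI replicate 1. That of Glul ran from -0.90 to 0.29 (without TBI replicate 1) and 0.30 (without the naïve rat). No paired analysis was possible because the groups of nuclei share fewer than 2 replicate numbers. With 2 rats a group, and 59 to 130 UMIs of Gjb6 a gate, small differences were not detectable.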
